A study of Homo sapiens with 15 samples.

Results

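FOXA1 binding was compared between 2 libraries of 22Rv1, an established cell line from a human prostate carcinoma, in which a wild-type (WT) FOXA1 had been switched on with doxycycline: 1 library from cells given the stereoprobe WX-02-23 and 1 from cells given the vehicle DMSO. The members are all peaks of the 2 deposited lists, 31735 with DMSO and 25849 with WX-02-23, which together make 57584 of the 249079 peaks in the 12 lists of the series. Both libraries came from chromatin immunoprecipitation with sequencing (ChIP-seq) with an antibody against FOXA1. Both groups shared the same engineered background, in which the cells also overexpressed the Y36C form of the splicing factor PHF5A. The compound treatment lasted 3 h, with WX-02-23 at 20 µM or DMSO at 0.1%, and doxycycline was present in both. The other lists used here came from parental cells with DMSO, WX-02-23, WX-02-43 (20 µM), PladB, a control small interfering RNA (siControl) or one against FOXA1 (siFOXA1), from the WT line with DMSO but without doxycycline, and from a line with inducible C258A FOXA1 and the same Y36C-PHF5A background without doxycycline, with doxycycline and DMSO, or with doxycycline and WX-02-23. The labels give no dose or duration of doxycycline, no level of the induced protein and no clone number for the lines. They name no tag, so the antibody could have precipitated the cells' own FOXA1 along with the induced one.

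FOXA1 is a forkhead transcription factor and is called a pioneer factor because it can bind its sites in closed chromatin and open them to other factors. In prostate cells it marks enhancers that the androgen receptor uses. When a pioneer factor is overexpressed, it can be found at many sites where its normal level leaves no measurable binding. The study's title names covalent small molecules that redirect FOXA1, and a cysteine is the residue replaced in the C258A form, so the WT line is the arm in which the induced protein still carries that residue.

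A site was called endogenous when the peak overlapped a peak of the parental DMSO list by at least 1 bp, and induced when it did not. The name induced rests on that absence alone and does not show that doxycycline produced the site. Of the 8575 peaks in the WT line without doxycycline, 383 also had no parental DMSO peak. A DMSO peak was kept when it overlapped a WX-02-23 peak and lost otherwise, and a WX-02-23 peak with no DMSO peak was gained. With 1 library for each condition there were no replicates, and no test between conditions was possible. Percentages are followed by Wilson 95% intervals, which take peaks to be independent and hold only the error of counting. The number of reads behind each list is unknown. The WX-02-23 list was shorter than the DMSO list, its median peak was narrower (533 against 634 bp) and it covered 14.5 Mb against 21.3 Mb. Whether fewer peaks came from less binding, less depth or weaker enrichment cannot be told apart in these lists.

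The strongest FOXA1 sites of the WT line were still called with WX-02-23, and most of the lost and gained peaks were weak ones. Of the 31735 DMSO peaks, 60.7% (60.2 to 61.3%) were kept and 12461 (39.3%) were lost. Of the 25849 WX-02-23 peaks, 6358 (24.6%) were gained. Endogenous sites were kept more often than induced sites, with 7707 of 11317 (68.1%, 67.2 to 69.0%) against 11567 of 20418 (56.7%, 56.0 to 57.3%). Gained peaks lay mostly at induced sites: 5136 of 16859 WX-02-23 peaks there were gained (30.5%, 29.8 to 31.2%), against 1222 of 8990 at endogenous sites (13.6%, 12.9 to 14.3%). With endogenous sites taken from the WT list without doxycycline in place of the parental DMSO list, the gained share there was 7.15% (6.47 to 7.89%). The make-up of the lists hardly moved, since 35.7% (35.1 to 36.2%) of the DMSO peaks and 34.8% (34.2 to 35.4%) of the WX-02-23 peaks were at endogenous sites. At equal length the gap in make-up was wider, at 37.6% (37.0 to 38.2%) against 34.8%.

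Scores came with the deposited peaks, on a scale that is not stated, and served here only to rank peaks within a list. Each list was cut into 10 bins of equal size by score. In the top bin of the DMSO list, with scores from 624 to 3219, 3140 of 3173 peaks (99.0%, 98.5 to 99.3%) were kept. The share fell in every following bin, through 64.1% (62.4 to 65.7%) in the fifth, to 26.3% (24.8 to 27.9%) in the last. Gained peaks ran the other way, from 27 of 2584 (1.04%, 0.719 to 1.52%) in the top bin of the WX-02-23 list to 1337 of 2585 (51.7%, 49.8 to 53.6%) in the last. Lost peaks had a median DMSO score of 138 at endogenous and 131 at induced sites, against 332 and 240 for kept peaks. Gained peaks had a median WX-02-23 score of 120 in both classes, against 233 and 194 for shared peaks.

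Most of the gap in kept shares between endogenous and induced sites went with score. Within bins the endogenous share exceeded the induced share by at most 6.29 points, and in the eighth bin it was 1.75 points below, at 36.6% against 38.3%. With both classes weighted to the same mix of bins, 62.5% of endogenous and 59.8% of induced DMSO peaks were kept, a gap of 2.64 points in place of 11.5. The gap in gained shares shrank less with the same weighting, from -16.9 to -12.1 points. It was present in every bin, from -1.72 points in the top bin to -17.8 in the last, where 38.6% of endogenous and 56.3% of induced WX-02-23 peaks were gained. At the same mix of bins, 16.3% of endogenous and 28.4% of induced peaks were gained.

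**Figure D1:**
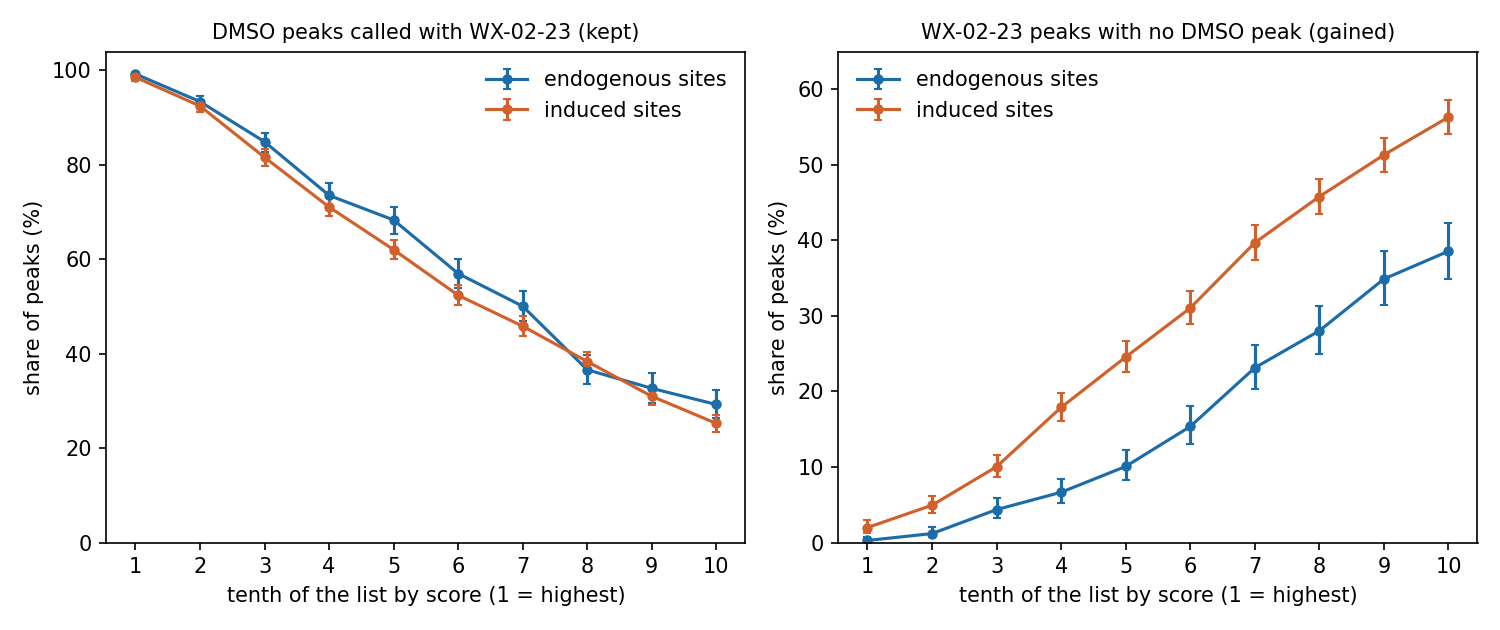
Share of WT DMSO peaks kept with WX-02-23 (left) and of WT WX-02-23 peaks gained (right), in percent, over 10 equal bins of the respective list by score, for endogenous (blue) and induced (orange) sites; bars are Wilson 95% intervals. The kept curves run close together from about 99% to between 25.2 and 29.2%, while the gained curves separate, reaching 38.6% at endogenous and 56.3% at induced sites.

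Equal list length left the pattern in place. When each list was limited to its top 25849 peaks by score, 68.1% (67.5 to 68.7%) of the DMSO peaks were kept, so 31.9% were lost, and 31.0% of WX-02-23 peaks (8020) were gained. The kept share was 74.2% (73.3 to 75.1%) at endogenous and 64.4% (63.7 to 65.1%) at induced sites, and the gained shares were 18.9% (18.1 to 19.8%) and 37.5% (36.7 to 38.2%). As a level of agreement between libraries without a stereoprobe, 85.2% (84.8 to 85.7%) of parental DMSO peaks were found with siControl and 86.4% (85.9 to 86.8%) with PladB at the same length. These pairs come from another cell background and other library preparations. WT DMSO against C258A DMSO, also without a stereoprobe but from different lines, agreed less. At 13299 peaks that pair had 69.5% (68.7 to 70.3%), against 66.8% (66.0 to 67.6%) for WT DMSO against WT WX-02-23. The distance from the WT pair to the parental pairs was small at the top of the list and large in the middle. In the top bin at this length 99.2% of WT DMSO peaks were kept, and all 2584 of the parental DMSO peaks were found with siControl. In the fifth bin the shares were 71.2% (69.4 to 72.9%) and 98.3% (97.7 to 98.7%), and in the last bin 36.3% (34.5 to 38.2%) and 45.5% (43.6 to 47.5%).

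The overlap of the strongest peaks alone was lower still. Of the 1000 highest-scoring DMSO peaks, 576 (57.6%, 54.5 to 60.6%) overlapped one of the 1000 highest-scoring WX-02-23 peaks, and of the top 5000, 64.2% (62.9 to 65.5%) did. For parental DMSO against siControl the values were 78.1% (75.4 to 80.6%) and 85.6% (84.6 to 86.5%). For parental DMSO against parental WX-02-23 they were 46.7% (43.6 to 49.8%) and 64.5% (63.1 to 65.8%). C258A DMSO against C258A WX-02-23 gave 74.7% (71.9 to 77.3%) and 76.9% (75.7 to 78.1%). WT DMSO against C258A DMSO, with no stereoprobe in either, gave 64.3% (61.3 to 67.2%) and 68.0% (66.7 to 69.3%). Thus nearly all strong DMSO sites were still called with WX-02-23, but not in the same order of score.

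**Figure D2:**
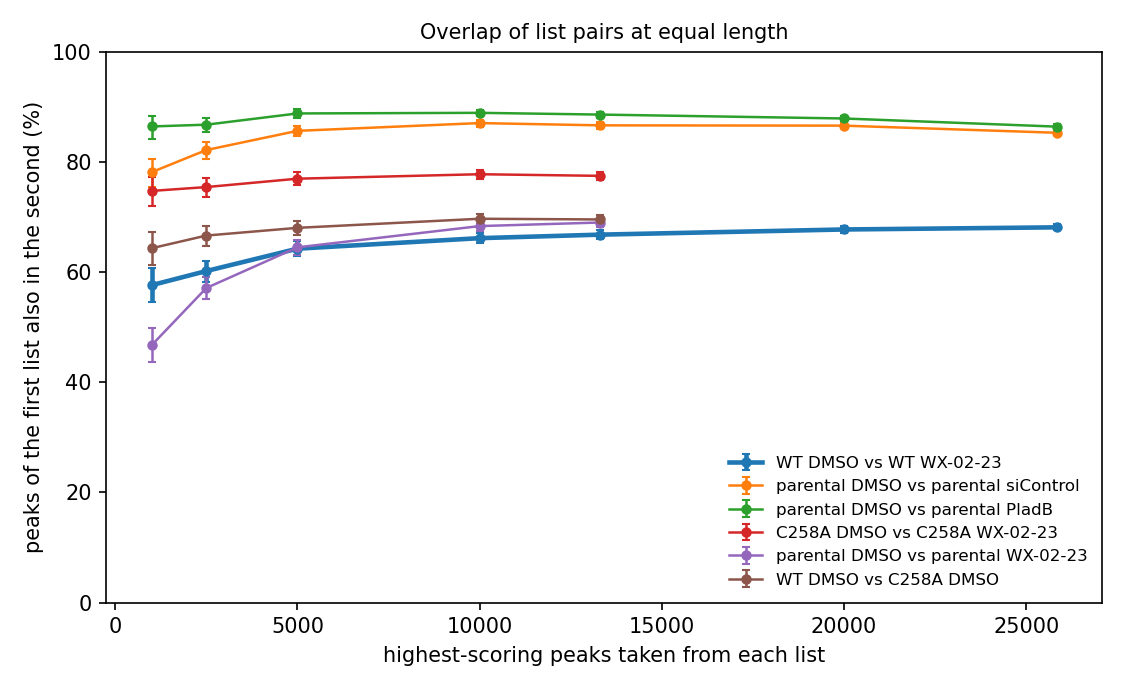
Percent of the highest-scoring peaks of the first list that overlapped the equally many highest-scoring peaks of the second list, against the number of peaks taken, for 6 pairs of lists; bars are Wilson 95% intervals. The WT pair (thick line) rises from 57.6 to 68.1%, below the parental pairs without a stereoprobe, which end at 85.2 and 86.4%. WT DMSO against C258A DMSO, also without a stereoprobe, ends at 69.5% with 13299 peaks.

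In the line with C258A FOXA1, the kept and gained shares differed less between the site classes. At the deposited lengths 9.16% of the 13299 C258A DMSO peaks were lost and 41.5% of the 20609 C258A WX-02-23 peaks were gained, but the DMSO list there was the shorter of the pair. With the 4 induced lists reduced to 13299 peaks, 33.2% of DMSO peaks were lost in WT and 22.6% in C258A cells, and 32.6% and 22.9% of WX-02-23 peaks were gained. At that length WT cells kept 71.7% (70.5 to 72.8%) of endogenous sites and C258A cells 80.5% (79.4 to 81.5%). At induced sites the kept shares were 62.9% (61.8 to 64.0%) and 75.4% (74.4 to 76.3%). Gained shares at endogenous sites were 21.9% (20.8 to 23.0%) and 21.7% (20.7 to 22.9%), with intervals that overlap almost wholly. At induced sites WT cells gained 39.9% (38.8 to 41.0%) and C258A cells 23.7% (22.8 to 24.7%), a pair of intervals that lie apart. These differences between the lines were not tested, since no condition has replicates.

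Lost endogenous sites were then looked up in the other lists, to see whether other libraries also lacked them. Of the 3610 lost endogenous peaks, 1557 (43.1%, 41.5 to 44.8%) were called in parental cells with WX-02-23, against 5878 of the 7707 kept ones (76.3%, 75.3 to 77.2%). With WX-02-43 the shares were 67.3% (65.8 to 68.8%) and 80.2% (79.3 to 81.0%). With siControl they were 93.4% (92.6 to 94.2%) and 95.4% (94.9 to 95.8%), and with PladB 94.6% and 96.0%. Because lost peaks were weak, both sets were also weighted to one mix of score bins, over the 9 bins that held at least 20 peaks of each set. At like score, 45.0% (42.8 to 47.2%) of lost and 73.0% (71.7 to 74.2%) of kept peaks were called in parental cells with WX-02-23, a difference of -28.0 points (-30.5 to -25.4). The difference was negative in each of the 9 bins, between -33.0 and -24.9 points. With WX-02-43 it was -3.48 points (-5.65 to -1.30), with siControl -0.0697 (-1.24 to 1.10) and with PladB 0.0495 (-0.979 to 1.08). The WX-02-43 interval included 0 at equal list length, at -2.39 points (-4.90 to 0.118), and with the top 50% of each list, at -0.783 (-3.18 to 1.61). Endogenous sites are defined by the parental DMSO list, and siControl and PladB called nearly all of both sets. At like score siControl called 94.2% of kept and 94.1% of lost peaks, and PladB 95.2% of each. With siFOXA1 the shares were 1.06% and 1.11%. Differences in these lists therefore had little room and serve poorly as a contrast. WX-02-43 called 75.3% of kept and 71.8% of lost peaks, and against that list WX-02-23 separated the sets more.

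In the engineered lines the same weighting gave -21.0 points (-23.2 to -18.8) in C258A cells with WX-02-23, where 45.5% of lost and 66.5% of kept peaks were called. In C258A cells with DMSO it gave -4.26 points (-6.39 to -2.14), in C258A cells without doxycycline -0.34 (-2.67 to 1.99), and in WT cells without doxycycline -7.52 (-10.1 to -4.98). Endogenous sites lost in WT cells were thus also called less often than kept ones when the C258A line was given WX-02-23. The same held with DMSO in that line, in each of the 9 bins. The C258A DMSO list was shorter, at 13299 against 20609 peaks. In the last bin it called 2.59% of lost and 5.49% of kept peaks, which left little room for a difference. The part of list length in the contrast between these 2 lists was not tested. Whether the induced protein or the cells' own FOXA1 was bound at the sites lost in WT cells was not tested.

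At induced sites the same comparison had few calls in parental cells. Of the 8851 lost induced peaks, 87 (0.983%, 0.798 to 1.21%) were called in parental cells with WX-02-23, against 525 of the 11567 kept ones (4.54%, 4.17 to 4.93%). With WX-02-43 the shares were 0.723% (0.567 to 0.922%) and 0.89% (0.735 to 1.08%), and with siControl 4.58% and 4.69%. At like score the difference was -3.71 points (-4.20 to -3.23) with parental WX-02-23 and -12.7 points (-14.2 to -11.2) with C258A WX-02-23. It was -7.62 points (-9.03 to -6.21) with C258A DMSO. Of the lost induced peaks, 17.5% (16.7 to 18.3%) were peaks in C258A cells with DMSO and 30.3% (29.4 to 31.3%) with WX-02-23. Kept induced peaks had 47.8% and 64.7% in these lists, so both sets had the larger share with WX-02-23. The C258A WX-02-23 list was also the longer, with 20609 peaks against 13299 with DMSO. The part of list length in these larger shares was not tested.

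**Figure D3:**
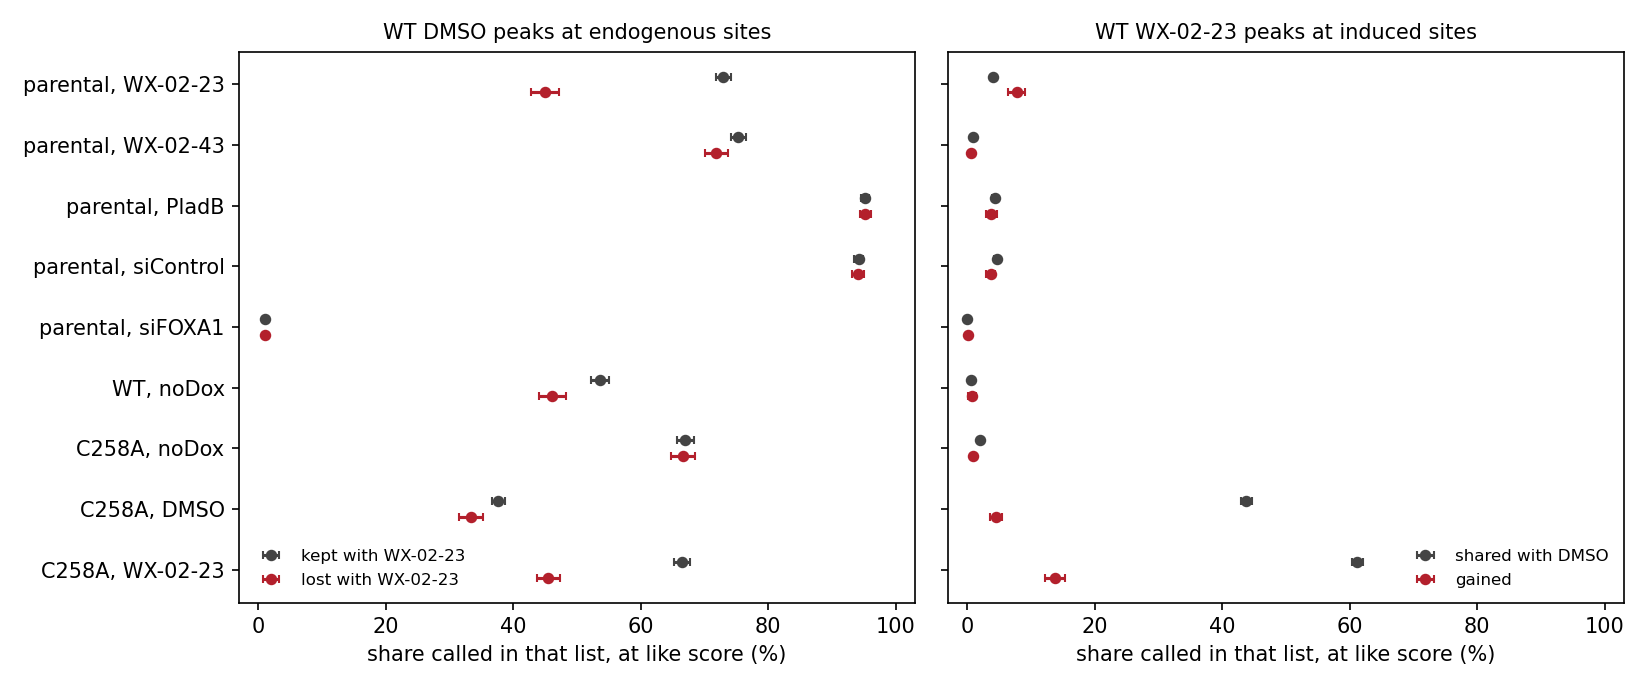
Percent of WT peaks called in each of 9 other lists, weighted to one mix of score bins, for DMSO peaks at endogenous sites that were kept (dark) or lost (red) with WX-02-23 (left), and for WX-02-23 peaks at induced sites that were shared with DMSO (dark) or gained (red) (right); bars are 95% intervals from binomial counting error. Lost and kept endogenous sites differ by -28.0 points (lost minus kept) in the parental WX-02-23 list and by -3.48 in the parental WX-02-43 list. In the siControl and PladB lists they differ by -0.0697 and 0.0495 points, but these lists hold nearly all peaks of both sets, which leaves little room for a difference.

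Gained peaks at induced sites were mostly absent from every other list. Of the 5136 gained induced peaks, 4050 (78.9%, 77.7 to 80.0%) were called in none of the 9 lists other than the 3 that define the set, against 29.9% (29.1 to 30.7%) of the 11723 shared induced peaks. For lost induced peaks the share was 60.7% (59.7 to 61.7%). These shares were not weighted by score, and gained induced peaks had a median score of 120 against 194 for shared ones. Induced sites lack a parental DMSO peak by definition. The parental lists and those without doxycycline called at most 5.72% of gained and 4.72% of shared induced peaks. The contrast thus rests mostly on the C258A lists with doxycycline. With DMSO that line had 4.13% of gained and 47.7% of shared induced peaks, and with WX-02-23 12.1% and 64.5%. Of the 1222 gained endogenous peaks, which all lie in the parental DMSO list by definition, 2.05% (1.39 to 3.00%) were in none of the 9. In parental cells with WX-02-23, 294 gained induced peaks (5.72%, 5.12 to 6.39%) were called, against 4.54% of shared ones. In parental cells with WX-02-43 the shares were 0.623% (0.442 to 0.878%) and 0.879%. In the C258A list with WX-02-23, 619 gained induced peaks (12.1%) were called, against 64.5% of shared ones, and at like score the difference was -47.4 points (-49.2 to -45.6), negative in each of the 10 bins. At like score, gained induced peaks were called in the parental WX-02-23 list 3.67 points (2.24 to 5.10) more often than shared ones, at 7.72% against 4.06%, and more often in each of the 10 bins. In the other parental lists the difference lay between -0.925 and 0.081 points.

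The 1222 gained endogenous peaks are sites of parental cells that were missing with DMSO after induction and called with WX-02-23. Of these, 854 (69.9%, 67.3 to 72.4%) were called in parental cells with WX-02-23, 58.3% (55.5 to 61.0%) with WX-02-43 and 91.7% with siControl. For shared endogenous peaks the shares were higher in all 3 lists, at 76.3%, 80.2% and 95.4%. In WT cells without doxycycline 27.6% (25.1 to 30.2%) were called, against 60.2% (59.1 to 61.3%) of the shared endogenous peaks. At like score, over 8 bins, the difference from shared peaks was -28.4 points (-32.0 to -24.8) in WT cells without doxycycline, -17.8 (-21.6 to -14.1) with parental WX-02-43 and 4.79 (1.70 to 7.89) with parental WX-02-23. Of these peaks, 34 (2.78%, 2.00 to 3.86%) were called in C258A cells with DMSO and 287 (23.5%, 21.2 to 25.9%) in the C258A list with WX-02-23. Of the shared endogenous peaks, 59.2% and 80.0% were called there, and at like score the differences, gained minus shared, were -41.7 and -38.5 points. The C258A WX-02-23 list was longer than the C258A DMSO list, at 20609 against 13299 peaks, and the part of length was not tested.

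Single sites show these sets by position, in the hg19 build that the submitters' processing notes name. They are the highest-scoring peaks of each set, so they show the strong end and not the typical peak. Sequence and annotation of hg19 were not used, so no bases are printed and, with 1 exception given further on, no gene is named. The strongest kept endogenous peak, chr3:195586963-195587980, had the highest score of the DMSO list (3219), ranked 63 in the WX-02-23 list, and was called in 11 of the 12 lists, all but siFOXA1. The next, chr2:196172302-196173646, had a DMSO score of 3203, ranked 168 with WX-02-23 and was called in the same 11 lists. Among kept induced peaks the strongest was chr8:43092480-43095562, with a DMSO score of 3197 and rank 191 with WX-02-23. It was also called in parental cells with WX-02-23 and in both lines without doxycycline, so its place among induced sites rests on its absence from the parental DMSO list. The next, chr1:245824429-245826352, with a DMSO score of 3148 and rank 209 with WX-02-23, was called only in the 4 lists with doxycycline.

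The strongest lost endogenous peak was chr7:117033047-117034294, with a DMSO score of 1335 and rank 632 of 31735. It was called in 10 lists, parental WX-02-23 included, and was absent only from WT WX-02-23 and siFOXA1. The third, chr7:16117853-16118916 (score 889), and the fourth, chr13:99068396-99069283 (score 870), had the same 10 calls. The second, chr15:27553383-27554560 (score 1012), was also absent from parental WX-02-23 and from WT cells without doxycycline. Of these 4 sites, 3 were called with WX-02-23 in parental cells and all 4 in C258A cells. All 4 lay in the top score bin of the DMSO list. There the C258A WX-02-23 list called 99.3% of kept and 92.9% of the 14 lost endogenous peaks, so a call in that list was usual. The parental WX-02-23 list called 83.5% of the kept peaks in that bin, and lost minus kept was -33.5 points. The 3 calls there therefore do not stand for the lost peaks of the bin.

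The 4 strongest lost induced peaks were chr18:26602679-26603860 (score 1548, rank 411), chr13:65283685-65284724 (score 1129), chr5:84821264-84822189 (score 1121) and chr3:60845683-60846740 (score 990). The first 3 were called in WT cells with DMSO and in C258A cells with DMSO and with WX-02-23, and in no other list. The fourth was called in WT cells with DMSO and in C258A cells with WX-02-23 only. The peak on chromosome 5 lay 592 bp from the nearest WX-02-23 peak, so a looser rule for a shared site would come close to counting it as kept. The other 3 lay 15497 to 149251 bp away.

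Gained endogenous peaks were led by chr18:77378372-77380959, with a WX-02-23 score of 715 and rank 1444 of 25849. It was called in parental cells with DMSO, PladB, siControl and WX-02-23, in WT cells without doxycycline and in no C258A list. The peak chr2:212260711-212261923 (score 603) was called in both lines without doxycycline and absent from both with doxycycline and DMSO, and it was absent from parental WX-02-23. The peaks chr22:24519448-24520034 (score 547) and chr4:122642696-122643152 (score 540) were called in every parental list except siFOXA1 and, among the engineered lists, in WT cells with WX-02-23 alone.

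The strongest gained peak of all was chr14:38060388-38061991, at an induced site, with a WX-02-23 score of 2525 and rank 46 of 25849. As background, this interval lies within the FOXA1 gene itself, an assignment from general knowledge of the hg19 build and not from an annotation used here. The WT line without doxycycline had it too, at chr14:38060367-38062036 with a score of 741 and rank 363 of 8575. The WT DMSO list and all parental and C258A lists lacked it. The WT cells carry an introduced FOXA1 sequence, and whether reads from it contribute to this peak was not tested. A neighbouring peak within 5000 bp of it ended between 38058230 and 38058674. That neighbour was called in each of the 12 lists except siFOXA1 and C258A with DMSO. It ranked 2167 of 30557 in parental DMSO, 19438 of 31735 in WT DMSO and 23231 of 25849 in WT WX-02-23. A further gained peak, chr14:38062837-38063569 (rank 12448 of 25849), had a counterpart in the parental WX-02-23 list alone, at chr14:38062937-38063633 with rank 9042 of 17217. These neighbours were chosen after their values were seen.

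The other 3 leading gained induced peaks were chr15:28344800-28345898 (score 1344, rank 305), chr5:172214035-172214581 (score 965) and chr8:131384902-131385505 (score 751). All 3 were absent from the other 11 lists. They lay 42478 to 246776 bp from the nearest DMSO peak.

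Where peaks of the 2 conditions overlapped, their centres lay close together and the WX-02-23 peak was typically narrower. The pairs were taken by overlap, which by itself keeps the centres near. Peaks were also narrower over the whole WX-02-23 list (median 533 against 634 bp), and the cause was not tested. Over 19533 overlapping pairs the centres lay a median of 39.0 bp apart, and 9 in 10 lay within 115 bp. The median width was 686 bp with DMSO and 555 bp with WX-02-23, and the median ratio of widths was 0.798 at endogenous and 0.825 at induced sites. In 63.0% (62.3 to 63.6%) of pairs the WX-02-23 peak lay wholly inside the DMSO peak. The overlap rule was rarely decided at its edge, since 70 pairs overlapped by less than 100 bp. Of the lost peaks, 420 (3.37%) had a WX-02-23 peak within 500 bp, and 280 gained peaks (4.40%) had a DMSO peak within 500 bp. The median lost peak lay 25569 bp from the nearest WX-02-23 peak, and the median gained peak lay 22126 bp from the nearest DMSO peak.

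The shares varied between chromosomes. Over the 22 autosomes the kept share ran from 57.7% (55.6 to 59.7%) on chromosome 5 to 64.0% (57.5 to 70.0%) on chromosome 22. At induced sites it ran from 52.8% (50.3 to 55.3%) on chromosome 5 to 68.6% on chromosome 19. The gained share ran from 21.7% (20.0 to 23.7%) on chromosome 3 to 32.4% (26.4 to 39.0%) on chromosome 19, and at endogenous sites from 9.26% (5.11 to 16.2%) on chromosome 21 to 24.5% (18.2 to 32.1%) on chromosome 20. In the last 3 of these ranges the intervals of the lowest and highest chromosome lie apart. Each pair was picked by value as the extremes of the 22, so this separation cannot show a difference between chromosomes. Endogenous sites were kept more often than induced sites on 20 of the 22, and gained peaks were a larger share of induced than of endogenous sites on all 22. Chromosome 19 ran against the rule for kept sites, with 58.1% (49.1 to 66.7%) of 117 endogenous and 68.6% (59.2 to 76.7%) of 105 induced peaks kept, and its intervals overlap. Chromosome X had a lower kept share than any autosome, with 52.8% (48.6 to 56.9%) of DMSO peaks kept and 35.7% (31.4 to 40.2%) of WX-02-23 peaks gained. The kept interval of chromosome X overlaps that of chromosome 5 (55.6 to 59.7%), and the gained interval of chromosome 19 includes the gained share of chromosome X. For chromosome X the gained share was 27.4% (21.2 to 34.6%) at endogenous and 40.6% (35.0 to 46.3%) at induced sites.

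**Figure D4:**
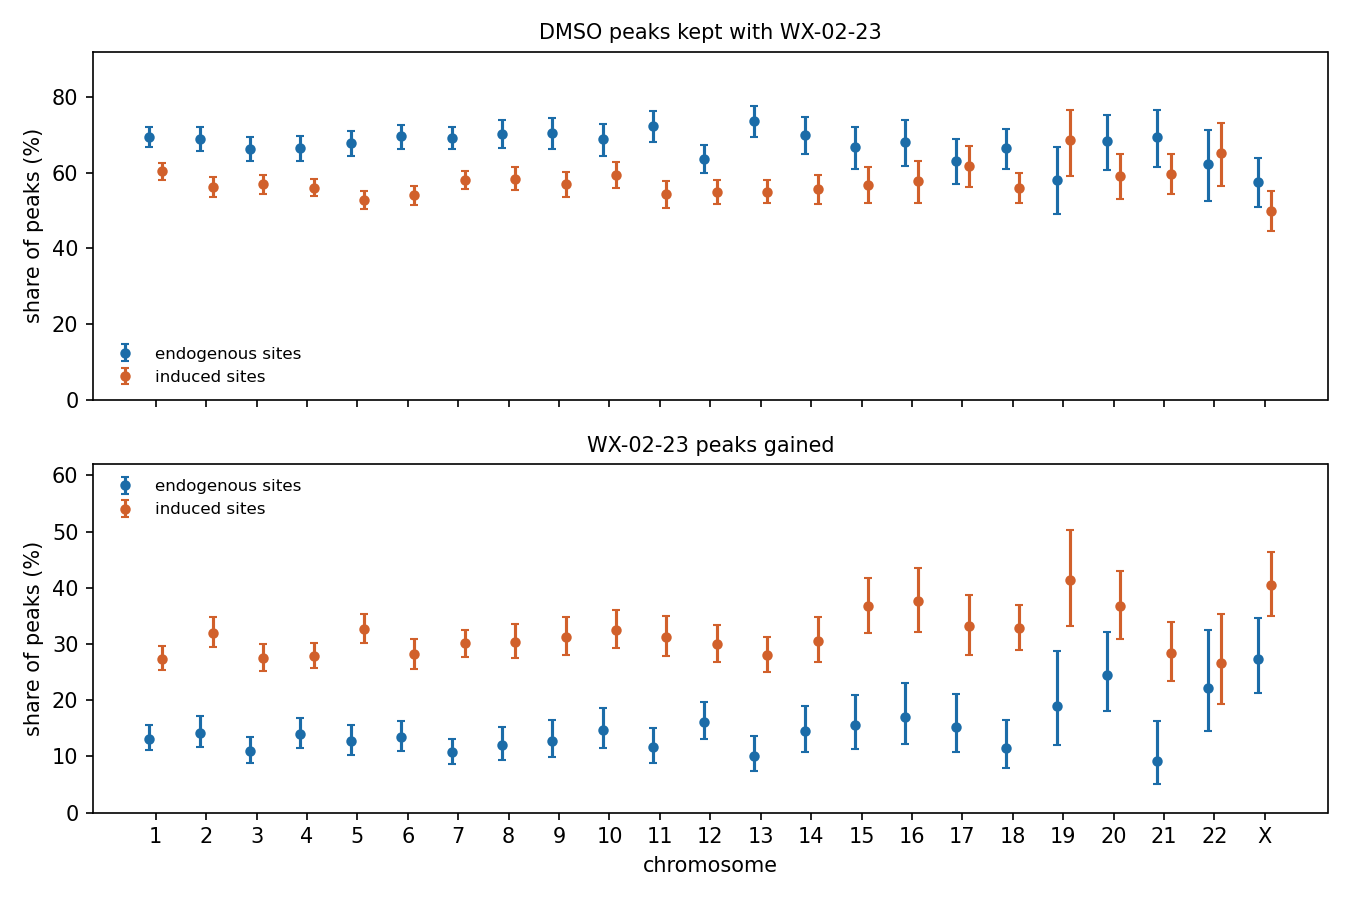
Percent of WT DMSO peaks kept with WX-02-23 (top) and of WT WX-02-23 peaks gained (bottom) on each autosome and chromosome X, for endogenous (blue) and induced (orange) sites; bars are Wilson 95% intervals. The endogenous kept share lies above the induced one on 20 of 22 autosomes, and the gained share lies below it on all 22.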

How the data were processed

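Each library's peak list was deposited by the authors as a file of 5 columns without a header: chromosome, start, end, peak name and score. The score of each peak is the authors' deposited value, its definition is not given in the sources used here, and it was used only to rank peaks within a list. Per the submitters' processing notes, bcl2fastq and Bowtie2 were used with the hg19 build. Peak names begin with MACS; caller version, thresholds and control are not given in the sources used here. Lists are per library, not pooled. Input libraries (3) were not analysed here. Starts were read as counted from 0 and are printed from 1.

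Overlaps were computed with bedtools 2.31.1 and intervals with scipy 1.17.1. Ties in score kept file order. Shares at like score were weighted to the pooled bin composition, over bins with at least 20 peaks in both sets. The overlap code was tested on simulated data. No blacklist of regions was applied. Sequence motifs and gene lists were planned but not analysed here, since no genome or annotation of hg19 was used. Named peaks are the 4 highest-scoring of each lost or gained set and the 2 highest of each kept set. Members, site classes and comparisons were chosen with earlier results of these data known.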

Additional observations from a re-analysis of the deposited data

Results flagged for a closer look

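Peak numbers at endogenous sites fell in one engineered line and rose in the other when WX-02-23 was given, with a change of -2327 in WT and of 2614 in C258A cells. Without replicates this difference was not tested. Peak numbers at induced sites changed by -3559 in WT and by 4696 in C258A cells. The C258A DMSO list held 13299 peaks against 31735 in the WT DMSO list, and read depth is unknown in both.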

How the results depend on the processing

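For the 8 results recomputed, 52 alternative values were obtained, of which 22 stayed within the 95% interval of the reported value and 30 moved. No test was made, so no call could change, and the signs of both score-weighted differences held under all 7 alternatives. Endogenous sites had the higher kept and the lower gained share under all 7 alternatives. Values are given for kept shares of all, endogenous and induced DMSO peaks, then gained shares in the same order. A reciprocal overlap of 50% gave 58.3%, 65.7%, 54.9%, 28.4%, 16.0% and 32.5%. A gap of up to 500 bp gave 62.1%, 69.4% and 57.8% kept, and 23.5% of all and 29.4% of induced peaks gained. Equal length gave 68.1%, 74.2%, 64.4%, 31.0%, 18.9% and 37.5%. The top 50% of each list gave 60.0%, 65.8%, 55.7%, 25.7%, 16.4% and 32.2%. Endogenous sites taken from the parental DMSO, siControl and PladB lists together gave 66.9% kept and 15.0% gained at endogenous sites. Endogenous sites taken from the WT list without doxycycline gave 76.1% kept and 7.15% gained at endogenous sites, and 28.9% gained at induced sites. For lost minus kept endogenous peaks at like score, with alternatives chosen after seeing the data, the top 50% of each list gave -23.2 points in the parental WX-02-23 list and -0.783 (-3.18 to 1.61) in the parental WX-02-43 list. No paired analysis was possible because each group has 1 library. The cause of these moves was not tested, and unknown read depth limits every share.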

Other observations

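Peaks that stood close together were kept slightly more often. Of DMSO peaks with another DMSO peak within 2 kb, 64.8% (63.3 to 66.4%) were kept, against 59.6% (57.8 to 61.3%) of those more than 100 kb from the next. At endogenous sites the shares were 74.2% (71.7 to 76.7%) and 64.0% (61.4 to 66.6%), and at induced sites 60.3% (58.4 to 62.2%) and 56.3% (53.9 to 58.6%). Median scores fell along with distance, from 211 to 173, and their part in the result was not tested. Gained peaks were more often isolated, with 20.4% (19.0 to 21.8%) of WX-02-23 peaks within 2 kb of another gained, against 29.3% (27.8 to 30.9%) of those more than 100 kb away. Median WX-02-23 scores fell here too, from 190 to 160, and their part was not tested.

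In windows of 1 Mb, the WX-02-23 list held fewer peaks than the DMSO list in 1887 of 2867 windows and more in 589. These counts used the deposited lists, of 25849 peaks with WX-02-23 and 31735 with DMSO. A shorter list by itself leaves fewer peaks in many windows, and the part of length was not tested. The windows with the largest changes were picked after their values were seen. On chromosome 13, from 66000001 to 67000000, 36 DMSO peaks faced 13 WX-02-23 peaks, with 25 lost. In that window parental cells had 16 peaks with DMSO and 8 with WX-02-23, and C258A cells had 17 and 25. On chromosome 1, from 188000001 to 189000000, 57 DMSO peaks faced 34 WX-02-23 peaks. The largest rise was on chromosome X, from 114000001 to 115000000, with 3 DMSO and 15 WX-02-23 peaks, of which 13 were gained. In that window C258A cells went from 1 to 9 peaks with WX-02-23, parental cells had 21 with DMSO and 19 with WX-02-23, and 14 peaks were called with siFOXA1.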
